A study of Mus musculus with 6 samples.

Results

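The autophagy machinery and its cargo receptors were examined as a set of 40 genes, chosen by name from the 16880 genes of the expression table and grouped by role. Autophagy encloses cytoplasmic material in a double membrane, the autophagosome, which is then delivered to lysosomes. A kinase complex around ULK1 starts the process and a lipid kinase complex around PIK3C3 marks the membrane, while lipid carriers feed the growing sheet. A pair of ubiquitin-like reactions attaches proteins of the Atg8 family to the membrane, where they are bound by receptors that carry cargo such as ubiquitylated proteins, and in cartilage the pathway is known for its part in the survival of chondrocytes under stress.

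RNA was sequenced from 6 libraries of mouse cells that all received the inflammatory cytokine interleukin 1β (IL-1β) at 10 ng/mL. In 3 of them IL-1β was the only agent, and in the other 3 it was combined with NP-G2-044 at 10 μM, a small molecule inhibitor of the actin-bundling protein fascin (FSCN1). The time of 24 h comes from the methods. The labels name the cells as ATDC5, a mouse chondrogenic line, where the paper speaks of chondrocytes, and the treatment field of the inhibitor group reads NP-G2-047 where the titles read NP-G2-044. A control group without IL-1β was not analysed here, so each difference is that between IL-1β plus NP-G2-044 and IL-1β alone. Nothing in the labels says whether the libraries of a group came from separate cultures, although the methods speak of biological replicates. The spread between libraries of a group may therefore in part be technical. The standard errors, intervals and adjusted p-values given below rest on this spread, which the fit pools in part over the genes tested. Its common coefficient of variation between replicates was 2.33%.

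The libraries held 16615824 to 17735860 reads, and 11983 genes passed the filter on low counts, all 40 autophagy genes among them. An autophagy gene had between 90 and 42930 reads in a library. No library stood apart from its group. TPM is the abundance of a gene's transcripts as a part of the whole library, corrected for transcript length, which allows genes to be compared with each other. Of 11 chondrocyte markers, 8 were listed, and their summed level was 16.7 to 17.9 TPM with IL-1β and 13.5 to 14.4 TPM with NP-G2-044 added. The defining collagen Col2a1 was at 0.20 to 0.24 and 0.02 to 0.06 TPM, and Matn1 was at 0 in every library, so the chondrocyte label rests here on Sox9 and Sox5. These moved in opposite directions, Sox9 from 6.44 to 11.4 TPM (log2 fold change 0.85) and Sox5 from 10.3 to 2.27 TPM (−2.49), both called. The 4 macrophage markers listed summed to 11.3 to 14.3 TPM with IL-1β and 124 to 135 TPM with NP-G2-044, all but a little of it Cd68, which also encodes a lysosomal membrane protein, while Ptprc was at 0 and Csf1r and Lyz2 were at or below 0.48 TPM in every library. The 6 fibroblast markers summed to 1101 to 1148 and 336 to 350 TPM, nearly all of it Col1a2, with Thy1 at 0, while Pdgfra went the other way, from 2.36 to 8.69 TPM (log2 fold change 1.91), and those of adipocytes, osteoblasts, endothelium, muscle and epithelium to at most 5.09 TPM in any library. The part of these markers in the results was not tested. In bulk RNA, a change in the share of cells that express a gene and a change in RNA per cell cannot be told apart.

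Most autophagy genes were higher with NP-G2-044, by small amounts. Changes are given as log2 fold changes from read counts with the quasi-likelihood test of edgeR, and a gene is called at a Benjamini-Hochberg adjusted p below 0.05 over all genes tested. By this rule 26 of the 40 genes were higher and 5 were lower, and 9 were not called. Over all genes tested 40.2% were called higher and 39.8% lower, so a call by itself was common in these data. The median log2 fold change of the 40 genes was 0.24, against 0.00 over all genes tested. In size, however, the median was 0.30 for the autophagy genes and 0.39 for all genes, and 12 of the 40 changed by more than 0.5 on the log2 scale, where 40.3% of all genes did. With the additional cutoff of the study, a log2 fold change above 1 in size, Sqstm1 and Atg10 were called higher and no autophagy gene was called lower, against backgrounds of 6.48% and 10.1%. The TPM values of the groups did not overlap for 31 of the 40 genes, 25 with NP-G2-044 above and 6 with it below, where 38.0% and 41.4% of all genes tested showed these patterns. The summed level of the 40 genes was 3121 ± 36.4 TPM (SD, n = 3) with IL-1β and 5067 ± 74.3 TPM (SD, n = 3) with NP-G2-044, and most of that difference was Sqstm1.

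**Figure D1:**
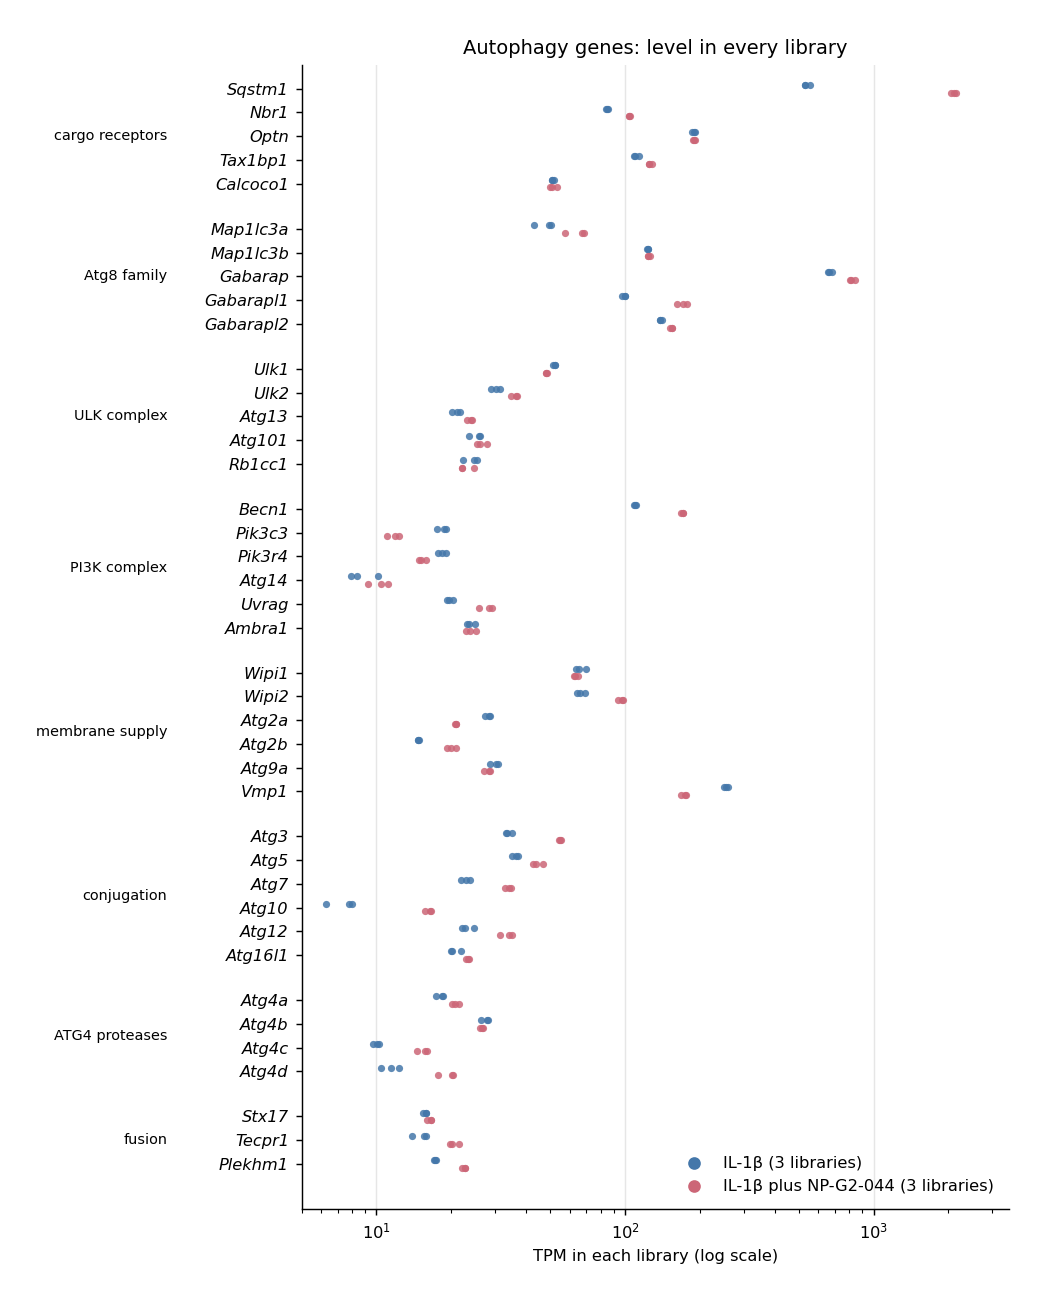
Level of each of the 40 autophagy genes in TPM (log axis) in the 3 libraries with IL-1β (blue) and the 3 with IL-1β plus NP-G2-044 (red), 1 point per library, grouped by role. Sqstm1 moved from 531 to 557 TPM to 2052 to 2141 TPM. The groups did not overlap for 25 genes with NP-G2-044 above and 6 with it below, against 38.0% and 41.4% of all genes tested.

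Among the cargo receptors, Sqstm1 stood out. It encodes p62, which binds ubiquitylated cargo and Atg8 proteins and also binds KEAP1. Its level was 531, 557 and 532 TPM with IL-1β and 2108, 2141 and 2052 TPM with NP-G2-044. The groups were far apart and each was tight. The log2 fold change was 1.99 (SE 0.03, adjusted p = 3.31e-50, edgeR), a 3.98-fold rise, and by log2 fold change from the highest Sqstm1 ranked 202 of 11983 genes. In size, 5.21% of all genes tested changed more than Sqstm1. The gene lies at chr11:50200152-50210820 on the minus strand (RefSeq, GRCm38.p6) and shares 580 of its 3356 exon bases with Mrnip on the other strand. The sources do not say whether strand was used in counting. Mrnip had 430 reads summed over the IL-1β group and 279 over the NP-G2-044 group, where Sqstm1 had 30025 and 125537. The part of Mrnip reads in the value of Sqstm1 was not tested.

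The stretch directly before the Sqstm1 start (RefSeq, GRCm38.p6, chr11:50210821-50210940, minus strand, positions −120 to −1) is shown because this gene had the largest rise of the set. Its promoter window, from 250 bases before to 50 after the start, held none of the 6 motifs searched, so the stretch has no capitals. Sequence outside this window was not searched.
Sqstm1: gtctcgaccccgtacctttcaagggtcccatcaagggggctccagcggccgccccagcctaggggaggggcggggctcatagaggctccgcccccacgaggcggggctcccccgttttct

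The other 4 cargo receptors moved little or were not called. Nbr1, which acts with p62 in gathering ubiquitylated cargo, was at 83.5, 84.96 and 85.4 TPM with IL-1β and 104, 103 and 104 TPM with NP-G2-044. Its log2 fold change was 0.32 (SE 0.03, adjusted p = 4.4e-15, edgeR), and the groups did not overlap. Tax1bp1, a ubiquitin-binding receptor that joins p62 and NBR1 condensates, rose by 0.22 (adjusted p = 1.78e-09), from 111 ± 2.39 to 126.0 ± 2.01 TPM (SD, n = 3). Optn, a receptor for ubiquitylated mitochondria and bacteria, was at 185 to 191 TPM in one group and 187 to 191 TPM in the other, and its log2 fold change of 0.04 had a 95% interval of −0.01 to 0.10. Calcoco1, a receptor for endoplasmic reticulum and Golgi membranes, gave 0.04 as well, with an interval of −0.04 to 0.12. For Optn and Calcoco1 the groups overlapped, and these intervals leave room only for changes far smaller than that of Sqstm1.

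With these unequal changes, the makeup of the cargo receptor transcripts differed between the groups. Sqstm1 made up 55.1%, 56.4% and 54.7% of the summed cargo receptor TPM with IL-1β and 81.8%, 82.0% and 81.3% with NP-G2-044. The groups did not overlap (two-sided exact permutation test, p = 0.1, the smallest that 3 against 3 libraries allow). Optn, the next most abundant receptor, went from 19.3% to 7.36% of the sum although its own level was not called, and Calcoco1 from 5.24% to 1.995%. The summed level of the 5 receptors was 975 ± 12.9 TPM with IL-1β and 2571 ± 44.1 TPM with NP-G2-044 (SD, n = 3).

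**Figure D2:**
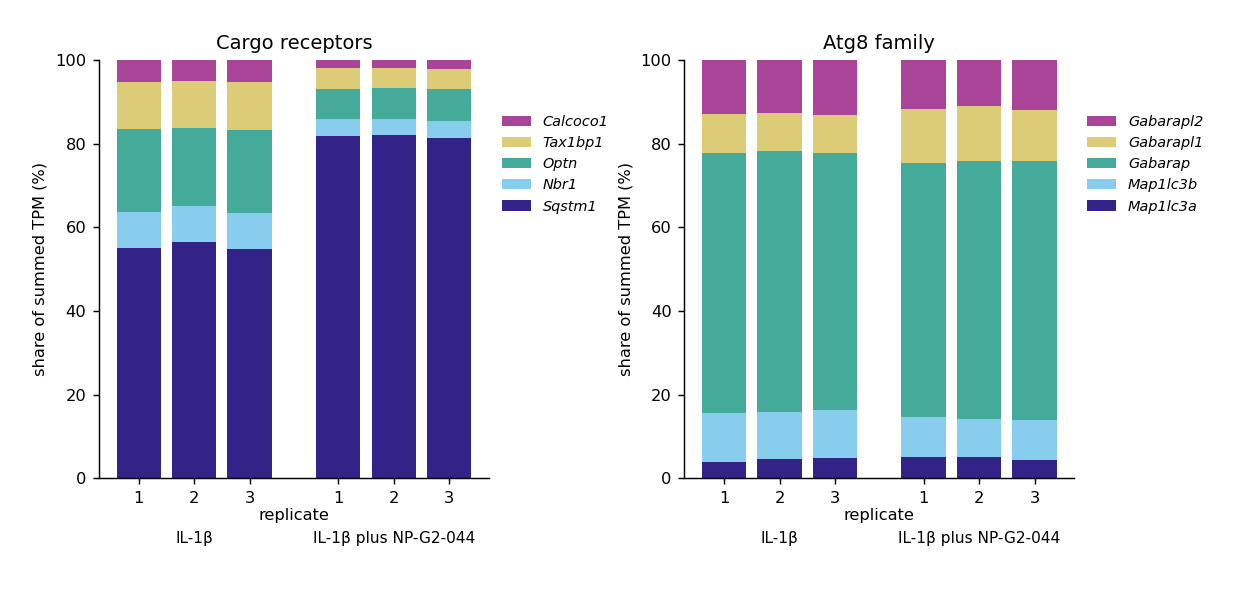
Share of each gene in the summed TPM of the 5 cargo receptors (left) and of the 5 Atg8 family genes (right), in percent, with 1 stacked bar per library. Sqstm1 took 54.7% to 56.4% of the receptor sum with IL-1β and 81.3% to 82.0% with NP-G2-044, while the Atg8 bars differed by a few percent, mainly in Gabarapl1.

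In the Atg8 family, 4 of 5 genes were called higher (40.2% of all genes tested), with a median log2 fold change of 0.32. The family has an LC3 and a GABARAP branch, and both are bound to lipid on the autophagosome membrane. Gabarapl1 changed most. Its level was 99.7, 100.1 and 97.3 TPM with IL-1β and 171, 178 and 161 TPM with NP-G2-044, without overlap. The log2 fold change was 0.81 (SE 0.04, adjusted p = 2.49e-27, edgeR). Its exons share 570 of 2013 bases with the transcript 1700101I11Rik on the other strand, for which no value was used here. Gabarap, at 653 to 682 TPM the most abundant gene of the 40 with IL-1β, rose to 801 to 841 TPM, a log2 fold change of 0.32 (adjusted p = 7.82e-15). Gabarapl2 rose by 0.17 on the same scale (adjusted p = 1.6e-04), from 138 to 140 TPM up to 152 to 155 TPM.

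The LC3 branch was split. Map1lc3a was at 43.0, 49.5 and 50.6 TPM with IL-1β and 67.2, 68.5 and 57.5 TPM with NP-G2-044. The groups did not overlap, but the spread within them was wide for this set, and the log2 fold change was 0.46 (SE 0.07, adjusted p = 3.08e-08, edgeR). Map1lc3b, whose lipid-bound protein is the usual marker of autophagosomes, was at 122 to 124 TPM with IL-1β and 123 to 126 TPM with NP-G2-044, and was not called (log2 fold change 0.05, 95% interval −0.02 to 0.11, adjusted p = 0.16). Within the family, the share of Gabarapl1 in the summed TPM went from 9.21% to 12.8%, and that of Map1lc3b from 11.5% to 9.36%. Both shares separated the groups (two-sided exact permutation test, p = 0.1, the smallest possible). Gabarap kept the largest share, 62.0% and 61.4%, and there the groups overlapped.

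**Figure D3:**
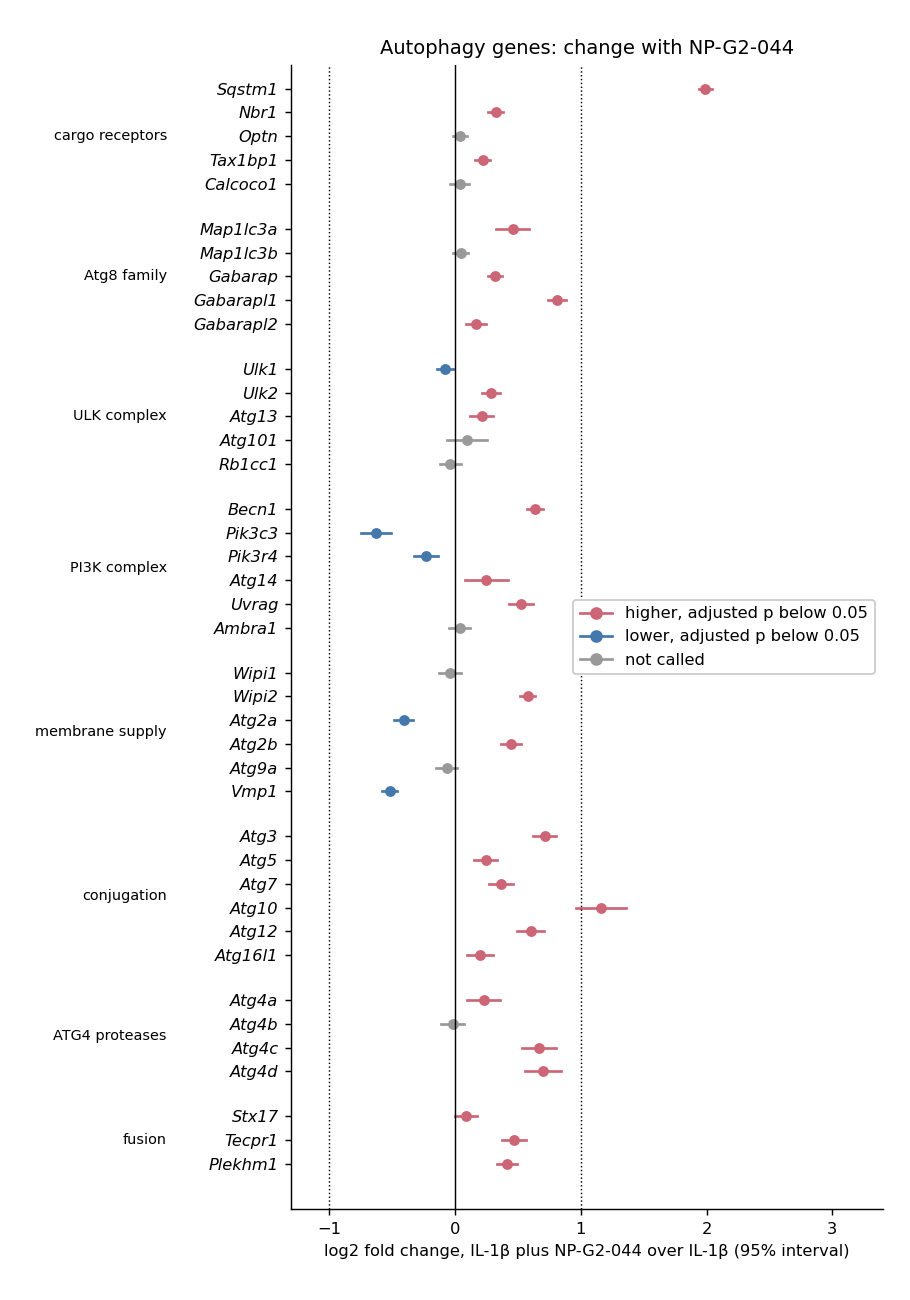
Log2 fold change of each gene between IL-1β plus NP-G2-044 and IL-1β from edgeR, with its 95% interval, grouped by role and coloured by call; dotted lines mark a log2 fold change of 1 in size. Sqstm1 (1.99) and Atg10 (1.16) lie past the upper line, and the 5 genes called lower lie between −0.63 and −0.08.

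The ULK complex, which receives signals from mTORC1 and AMPK and starts autophagosome formation, had a median log2 fold change of 0.10. Of its 5 genes, 2 were called higher and 1 lower, where 40.2% and 39.8% of all genes tested were. The kinase Ulk2 was at 28.8, 30.4 and 31.4 TPM with IL-1β and 36.5, 34.9 and 36.9 TPM with NP-G2-044. Its paralogue Ulk1 was at 52.4, 51.2 and 52.3 TPM and at 48.3, 48.5 and 48.1 TPM. The log2 fold changes of the 2 kinases had opposite signs, 0.29 for Ulk2 (adjusted p = 2.06e-10) and −0.08 for Ulk1 (adjusted p = 0.0252, edgeR). The change of Ulk1 was small and its call is close to the threshold. That call was lost in 6 of 16 alternative fits, DESeq2 among them (adjusted p = 0.0524). Atg13, the subunit that links the kinases to the rest of the complex, rose by 0.21 (adjusted p = 4.88e-05). Its partner Atg101 gave 0.10 with a 95% interval of −0.06 to 0.25, and the scaffold Rb1cc1, which encodes FIP200, gave −0.03 with an interval of −0.12 to 0.05, neither called.

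Subunits of the PI3K complex went in opposite directions. Becn1, which encodes the regulatory subunit Beclin 1, was at 109, 110.4 and 109 TPM with IL-1β and 172, 168 and 172 TPM with NP-G2-044, a rise of 0.63 on the log2 scale (SE 0.03, adjusted p = 1.17e-24, edgeR). The catalytic subunit Pik3c3 was at 17.5, 18.7 and 18.97 TPM and at 11.1, 12.4 and 11.9 TPM. It fell by 0.63 (SE 0.06, adjusted p = 1.28e-13), the largest fall among the 40 genes. The third core subunit, Pik3r4, a pseudokinase that anchors the complex, fell by 0.23 (adjusted p = 1.72e-05), from 17.67 to 19.1 TPM down to 14.9 to 15.9 TPM.

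Of the subunits that direct this kinase to its sites, Uvrag, found in the endosomal form, was at 19.2, 19.6 and 20.4 TPM with IL-1β and 29.2, 28.3 and 25.9 TPM with NP-G2-044 (log2 fold change 0.53, adjusted p = 2.11e-14, edgeR). Atg14, which defines the form that makes autophagosomes, was at 10.1, 8.39 and 7.89 TPM and at 11.1, 10.4 and 9.25 TPM. The groups of Atg14 overlapped, and its rise of 0.25 (adjusted p = 0.00734) was not called without IL-1β replicate 3 (0.17, adjusted p = 0.0764) or without NP-G2-044 replicate 1 (0.20, adjusted p = 0.0541). Ambra1, a scaffold that binds Beclin 1, was not called (0.04, 95% interval −0.04 to 0.12). The reads of Becn1 and Pik3c3, like those of Atg4d, were not whole numbers in every library, so part of them had been divided between genes or transcripts. Becn1 shares 3104 of 7065 exon bases with Cntd1 on the other strand, which had 28 and 33 reads per group. Uvrag shares 1589 of 9035 with an antisense gene, Gm45187, for which no value was used here.

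Genes of membrane supply showed the only negative median (−0.05), with 2 of 6 higher and 2 lower (40.2% and 39.8% of all genes). Vmp1, a lipid scramblase of the endoplasmic reticulum needed for autophagosome formation, was the most abundant of them. Its level was 251, 255 and 261 TPM with IL-1β and 168, 176 and 175 TPM with NP-G2-044, and it fell by 0.52 on the log2 scale (SE 0.03, adjusted p = 1.07e-22, edgeR). Its exons also cover the miRNA gene Mir21a on the same strand. The part of Mir21a RNA in the value of Vmp1 was not tested.

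The lipid transfer proteins ATG2A and ATG2B bridge the endoplasmic reticulum and the growing membrane. Atg2a was at 28.5, 27.3 and 28.6 TPM with IL-1β and 20.9, 20.7 and 20.8 TPM with NP-G2-044, and Atg2b was at 14.8, 14.7 and 14.7 TPM and at 20.9, 19.2 and 20.01 TPM. Atg2a fell by 0.41 (adjusted p = 2.73e-14, edgeR) while Atg2b rose by 0.45 (adjusted p = 4.6e-15). In TPM, Atg2a was therefore above Atg2b by 0.93 on the log2 scale with IL-1β, and with NP-G2-044 the difference was 0.06 ± 0.05 (SD, n = 3).

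WIPI proteins read the lipid that the PI3K complex makes. Wipi2, which recruits ATG16L1, was at 64.0, 66.1 and 68.9 TPM with IL-1β and 97.01, 98.5 and 93.5 TPM with NP-G2-044, a log2 fold change of 0.58 (adjusted p = 1.79e-23, edgeR). Wipi1 was at 63.8 to 69.7 and 62.1 to 64.7 TPM and was not called (−0.04, 95% interval −0.12 to 0.05). The pair differed by 0.00 ± 0.08 (SD, n = 3) in log2 TPM with IL-1β, and with NP-G2-044 Wipi1 stood 0.61 below Wipi2 on the log2 scale. Atg9a, the scramblase carried by the seed vesicles of the autophagosome, was at 28.8 to 30.8 TPM with IL-1β and 27.1 to 28.6 TPM with NP-G2-044. Its groups did not overlap, but its log2 fold change of −0.06 (interval −0.15 to 0.02) was not called. Atg9a shares 1832 of its 5762 exon bases with Gm29253 on the same strand, for which no value was used here. It shares 46 with Ankzf1 on the other strand (log2 fold change 0.41). The part of reads from these 2 genes in the value of Atg9a was not tested.

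All 6 genes of the conjugation reactions were called higher (40.2% of all genes tested), with a median log2 fold change of 0.49. ATG7 is the activating enzyme of both reactions, ATG10 and ATG3 are the transfer enzymes for ATG12 and for the Atg8 proteins, and ATG12, ATG5 and ATG16L1 form the complex that completes lipid attachment. Atg10 had the largest rise of the group and the lowest level of all 40 genes with IL-1β. It was at 6.27, 7.75 and 8.0 TPM with IL-1β and 15.7, 16.56 and 16.5 TPM with NP-G2-044, without overlap. The log2 fold change was 1.16 (SE 0.10, adjusted p = 1.88e-15, edgeR), 2.24-fold, with a 95% interval of 0.96 to 1.36 that reaches below the cutoff of 1. The number of reads behind it was 90 in the first IL-1β library and 248 in the third with NP-G2-044.

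Atg3 was at 33.1, 35.3 and 33.5 TPM with IL-1β and 55.3, 54.4 and 54.6 TPM with NP-G2-044, and Atg12 was at 22.7, 22.2 and 24.6 TPM and at 34.0, 31.4 and 35.0 TPM. Both were well separated, with log2 fold changes of 0.72 (SE 0.05, adjusted p = 3.13e-20, edgeR) and 0.60 (SE 0.05, adjusted p = 5.13e-15). Atg5 rose by 0.25 (adjusted p = 2.51e-06), from 35.1 to 37.1 TPM up to 42.6 to 46.7 TPM, and Atg16l1 by 0.20 (adjusted p = 3.59e-04), from 20.03 to 21.98 TPM up to 22.8 to 23.6 TPM. Atg7 was at 22.9, 23.9 and 21.9 TPM and at 32.9, 34.9 and 34.2 TPM. From read counts its log2 fold change was 0.37 (adjusted p = 6.69e-10), and from TPM it was 0.57. Atg7 was the only one of the 40 genes where the 2 measures differed by more than 0.1 beyond the shift common to all genes, which 5.12% of all genes tested did.

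The promoter stretches of 3 conjugation genes are shown, Atg10 for its rise and Atg3 and Atg5 because their windows hold searched motifs (RefSeq, GRCm38.p6). For Atg10 (chr13:91223988-91224107, minus strand) and Atg3 (chr16:45158709-45158828, plus strand) they cover positions −120 to −1 before a RefSeq start, and for Atg5 (chr10:44268279-44268348, plus strand) positions −60 to 10, the first 10 transcribed bases included. The RefSeq spans of Atg10, up to 91224725, and of Atg5, from 44268322, begin upstream of the starts used, so the Atg10 stretch lies within its span and that of Atg5 in part. Capitals mark motif letters.
Atg10: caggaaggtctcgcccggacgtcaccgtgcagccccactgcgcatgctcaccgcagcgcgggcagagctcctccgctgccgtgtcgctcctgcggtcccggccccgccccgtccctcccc
Atg3: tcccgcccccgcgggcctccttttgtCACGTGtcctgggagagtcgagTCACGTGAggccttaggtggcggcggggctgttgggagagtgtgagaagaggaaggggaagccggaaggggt
Atg5: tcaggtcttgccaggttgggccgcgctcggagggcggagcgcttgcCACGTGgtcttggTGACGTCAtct

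Promoter windows of 250 bases before and 50 after the start were held for 34 of the 40 genes, with 40 windows in all, and were searched on both strands. The core of the CLEAR motif (TCACGTGA), which TFEB, TFE3 and MITF bind, was present in 1 of the 40 windows, that of Atg3 at position −72, and in 0.974% of all 32851 windows. The E-box (CACGTG), which is contained in the CLEAR core, was present in 4 windows (10.0%), those of Atg3, Atg5, Atg7 and Atg14, and in 7.15% of all. In Atg3 it occurred at position −94 and, within the CLEAR core, at −71. The cyclic AMP response element (CRE, TGACGTCA) was present in the Atg5 window alone, at position −1, and in 1.79% of all windows. The core of the antioxidant response element (ARE, TGACNNNGC), which NRF2 binds and which can overlap the AP-1 motif, was present in 7 windows of 5 genes (17.5%), namely Atg13, Tax1bp1, Map1lc3b, Ulk2 and all 3 windows of Vmp1, against 12.4% of all. The element read by ATF4 with C/EBP factors (CARE, TGATGNAA) and the AP-1 motif (TGANTCA) were present in 3.97% and 7.81% of all windows and in none of the 40. Such matches are letters in a window and say nothing about binding. Whether genes with these letters changed differently from those without was not tested. Windows for Atg12, Atg16l1, Becn1, Map1lc3a, Pik3c3 and Rb1cc1 were not analysed here.

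Among the ATG4 proteases, which trim Atg8 proteins before lipid attachment and release them afterwards, 3 of 4 genes were called higher (all genes: 40.2%). Atg4c was at 9.72, 10.2 and 10.1 TPM with IL-1β and 15.6, 14.6 and 15.99 TPM with NP-G2-044, and Atg4d was at 11.5, 12.3 and 10.4 TPM and at 20.2, 20.4 and 17.6 TPM. Their log2 fold changes were 0.67 (SE 0.07, adjusted p = 4.14e-13) and 0.70 (SE 0.07, adjusted p = 1.84e-12, edgeR). Atg4d shares 1405 of its 7264 exon bases with Kri1 on the other strand, which itself went from 32.7 to 42.1 TPM (log2 fold change 0.40), so the part of Kri1 reads in the value of Atg4d was not tested. Atg4a rose by 0.23 (adjusted p = 0.0011), from 17.4 to 18.5 TPM up to 20.2 to 21.5 TPM. Atg4b, known as the protease with the broadest activity on the family, was the most abundant of the 4 at 26.3 to 28.1 TPM and 26.0 to 26.7 TPM, and was not called (−0.02, 95% interval −0.11 to 0.07).

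The 3 genes of fusion with lysosomes were called higher (40.2% of all genes tested), with a median log2 fold change of 0.42. Tecpr1, which tethers autophagosomes to lysosomes, was at 14.0, 15.8 and 15.6 TPM with IL-1β and 20.1, 19.8 and 21.4 TPM with NP-G2-044, and Plekhm1, an adaptor for RAB7 and the HOPS tether, was at 17.3, 17.4 and 17.0 TPM and at 22.7, 22.7 and 22.01 TPM. They rose by 0.47 (adjusted p = 2.59e-13) and 0.42 (adjusted p = 6.42e-14, edgeR), with groups well apart. Stx17, the SNARE protein of the autophagosome, was at 15.4 to 15.9 TPM and 15.98 to 16.57 TPM. Its change of 0.09 (adjusted p = 0.048) lay at the threshold, and the call was lost under most other settings, with an adjusted p of 0.169 in DESeq2 and of 0.187 without IL-1β replicate 2.

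The ratio between paralogues within each library does not depend on the scaling between libraries. Of 8 pairs compared, 7 had log2 TPM ratios that did not overlap between the groups (two-sided exact permutation test, p = 0.1, the smallest possible with 3 against 3 libraries, so that none can pass 0.05). Single genes separated the groups in 38.0% (above) and 41.4% (below) of those tested, and the share among other gene pairs was not computed, so the count is a description of these pairs. The largest shifts were those of Atg2a to Atg2b, from 0.93 to 0.06, Gabarapl1 to Gabarapl2, from −0.49 to 0.14, and Wipi1 to Wipi2, from 0.00 to −0.61. For Gabarapl1 to Gabarapl2 the order changed: Gabarapl1 was the lower of the 2 in each IL-1β library and the higher in each library with NP-G2-044. Ulk1 to Ulk2 went from 0.78 to 0.42, Map1lc3a to Map1lc3b from −1.37 to −0.95, Atg4a to Atg4b from −0.60 to −0.35 and Gabarap to Gabarapl2 from 2.26 to 2.41. Only the pair Atg4c and Atg4d overlapped (−0.18 and −0.33, exact permutation p = 0.3).

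**Figure D4:**
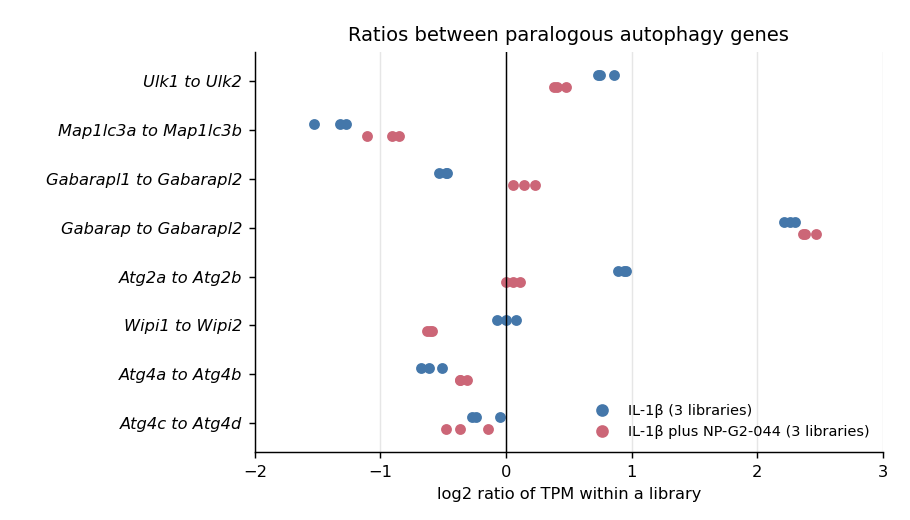
Log2 ratio of TPM between paralogous genes within each library, with 1 point per library, for IL-1β (blue) and IL-1β plus NP-G2-044 (red); at 0 both genes have the same level. The Atg2a to Atg2b ratio moved from 0.89 to 0.96 down to 0.00 to 0.11, the Gabarapl1 to Gabarapl2 ratio crossed 0, and the Atg4c to Atg4d points overlapped.

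Genes around the machinery were read from 6 lists of 87 genes, of which 84 were tested. Of these, 49 were higher, 25 lower and 10 not called, with a median log2 fold change of 0.26, where 40.2% and 39.8% of all genes were called higher and lower. Of the other core genes, 19 of 22 were higher and none lower, with a median of 0.35. The largest rises there were those of Epg5, a tether for autophagosome fusion, at 0.91 (4.597 to 8.10 TPM), and of Vps18, a HOPS subunit, at 0.58 (18.4 to 26.9 TPM).

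Cargo receptors outside the set were divided, with 6 of 16 higher and 9 lower (40.2% and 39.8% of all genes tested). Stbd1, a receptor for glycogen, was at 24.3 to 26.6 TPM with IL-1β and 226 to 233 TPM with NP-G2-044, a log2 fold change of 3.20 (adjusted p = 2.97e-52, edgeR). Tollip, a ubiquitin-binding adaptor, rose by 1.14 and Tex264, a receptor for endoplasmic reticulum, by 1.11, both without overlap. Bnip3, a receptor for mitochondria, fell by 1.11 on the log2 scale (adjusted p = 3.7e-27), from 67.7 to 75.3 TPM down to 31.3 to 33.4 TPM, and Nipsnap1, which displays damaged mitochondria to receptors, fell by 0.84.

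Of 10 transcription factors listed, 5 were higher and 4 lower, where 40.2% and 39.8% of all genes tested were. The stress factors Ddit3 (CHOP) and Atf4, both known to act on autophagy genes, had the largest rises, 4.05 (65.4 to 1226 TPM) and 2.30 (176 to 841 TPM). Tfe3, a factor for lysosome and autophagy genes, was at 135 to 142 TPM and 189 to 192 TPM (log2 fold change 0.47, adjusted p = 2.48e-21, edgeR). Its relative Tfeb was low, at 3.75 to 4.18 TPM and 2.81 to 2.92 TPM (−0.45, adjusted p = 0.00232). Mitf, of the same family, rose by 0.65 from 2.56 to 3.93 TPM, Foxo1 fell by 0.88, and Nfe2l2, which encodes NRF2, fell by 0.47. Values for Tfe3, Tfeb and Mitf are named here because they are the CLEAR-binding family, chosen after their values were seen.

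The nutrient and mTORC1 list had 17 of 26 genes higher and 6 lower, where 40.2% and 39.8% of all genes tested were. Sesn2, an inhibitor of mTORC1 in amino acid shortage, was at 6.01, 6.64 and 7.44 TPM with IL-1β and 52.9, 54.4 and 54.0 TPM with NP-G2-044 (log2 fold change 3.04, adjusted p = 2.21e-43, edgeR), while its relative Sesn3 fell by 1.196. The GTPase Rragd rose by 1.86, and Fnip2 and Flcn, which together act on it, rose by 1.76 and 1.08. Deptor, an mTOR inhibitor, was at 2.40 to 2.92 TPM and 0.24 to 0.33 TPM (−3.17), and the arginine sensor relative Castor2 fell by 1.07. Among AMPK genes, 2 of 7 were higher and 3 lower. The main catalytic subunit Prkaa1 fell by 0.52, from 39.0 to 26.6 TPM, and its paralogue Prkaa2 rose by 1.37 at a far lower level, 0.50 to 1.26 TPM. The regulatory subunit Prkab2 rose by 0.44 and the upstream kinase Stk11 fell by 0.22.

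All 3 kinase and adaptor genes linked to ubiquitin that were tested were lower, where 39.8% of all genes tested were called lower. Pink1, the kinase that marks damaged mitochondria, changed by −0.61, Keap1, which p62 binds, by −0.46, and Tbk1, the kinase of p62 and optineurin, by −0.25 on the log2 scale. Tbk1 was named after its value was seen.

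**Figure D5:**
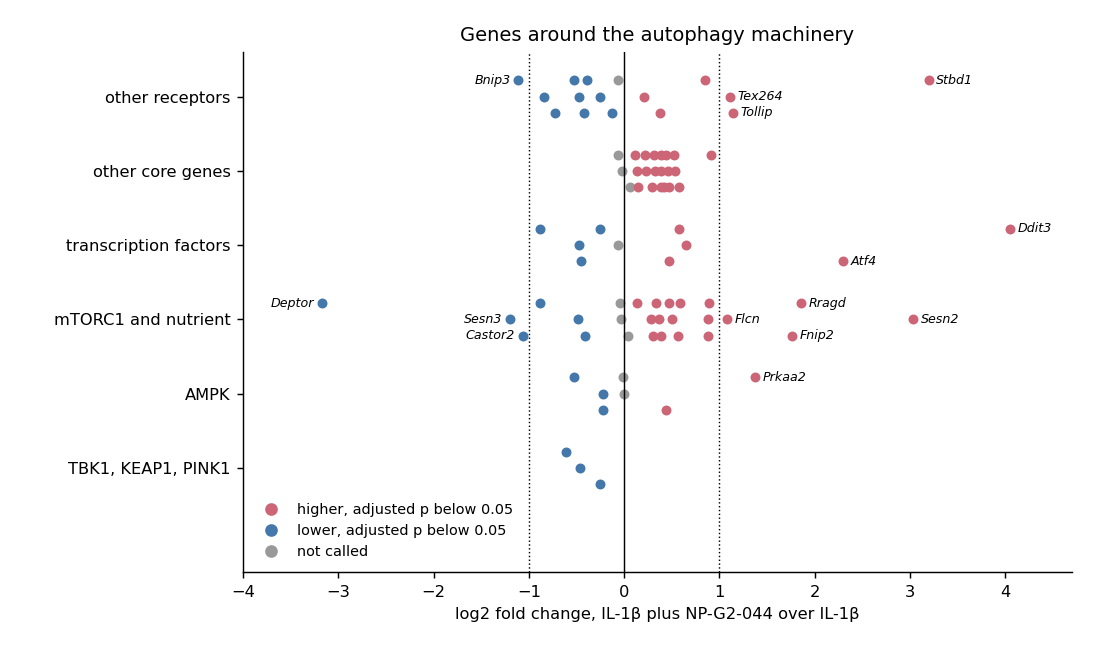
Log2 fold change of the 84 tested genes around the autophagy machinery by list, 1 point per gene, coloured by call, with dotted lines at 1 in size and names for genes past both cutoffs. The 22 other core genes lie between −0.06 and 0.91, while Ddit3 (4.05), Stbd1 (3.20), Sesn2 (3.04) and Deptor (−3.17) lie far from 0.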

How the data were processed

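The 6 libraries were grouped by their labels, 3 with IL-1β and 3 with IL-1β plus NP-G2-044. The submitters' processing notes name cutadapt, HISAT2 2.0, StringTie and the mm10 build, and BGI quantified the libraries according to the methods. For annotation, counting settings and use of strand the sources used here give nothing. The authors deposited expected counts, which are not normalized (10.17% to 11.06% not whole), TPM per library, used here for levels, and FPKM, which were not used. The authors' group means were not used.

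Expected counts were rounded, filtered with filterByExpr (minimum count 10), scaled by TMM and compared with glmQLFTest in edgeR 4.0.16 (R 4.3.3, robust), with treatment as the only term. Adjusted p-values are Benjamini-Hochberg values over 11983 genes. The steps were tested on simulated counts. Library totals were 16615824 to 17735860 reads, and the common coefficient of variation between replicates was 2.33%. Overlapping exons came from GENCODE vM21, and gene positions and promoter windows from RefSeq (both GRCm38). Alternatives used DESeq2 1.42.0 and limma 3.58.1.

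The 40 genes, the lists and the motifs were chosen with earlier results of these data known. All 40 genes were named. From each other list, genes past both cutoffs and the 2 largest rises and 2 largest falls were named. The result of 1 further gene is not reported here.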

Additional observations from a re-analysis of the deposited data

How the results depend on the processing

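The results were recomputed under 16 alternatives. The counts of autophagy genes past both cutoffs were 2 higher and 0 lower in each of them. Of all genes tested in the main fit, 6.48% and 10.1% were past both cutoffs. The median log2 fold change of the autophagy genes lay between 0.20 and 0.24. With glmTreat at a fold change of 1.2, 17 autophagy genes were higher and 3 lower, fewer because the test asks for a larger change. In either direction, glmTreat called 20 of the 40 autophagy genes and 6320 of all 11983 genes tested. In the other 15, between 24 and 26 autophagy genes were higher and 4 to 6 lower. The main fit called 40.2% of all genes tested higher and 39.8% lower. No called log2 fold change changed its sign. Over 40 genes and 16 alternatives, 606 values kept their side of the threshold, 32 lost the call and 2 gained it, namely Atg9a with at least 10 CPM in 3 libraries (−0.09, adjusted p = 0.0354) and Rb1cc1 without IL-1β replicate 1 (−0.09, adjusted p = 0.0401). Apart from glmTreat, calls were lost for Stx17, Ulk1 and Atg14. Leaving out 1 library at a time gave 0.07 to 0.11 for Stx17, −0.10 to −0.06 for Ulk1 and 0.17 to 0.37 for Atg14. The call of Ulk1 was lost without IL-1β replicate 1 (adjusted p = 0.093) and without NP-G2-044 replicate 1, 2 or 3 (0.0759, 0.05 and 0.051), and that of Stx17 without IL-1β replicate 2 or 3 (0.187 and 0.0722) and without NP-G2-044 replicate 2 or 3 (0.106 and 0.127). Same-numbered replicates did not deviate together (r = −0.09, −0.02 and 0.03) and not every library correlated best with its own number. With the replicate number as a block, 25 autophagy genes were higher and 5 lower, Stx17 lost its call (0.09, adjusted p = 0.0625), and 9498 genes in place of 9584 were called. Other scalings moved the median of all genes by less than 0.1 on the log2 scale.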

Other observations

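Within the lists of genes around the machinery, genes were grouped into complexes after their values were seen, so the counts are descriptions, to be read beside the 40.2% of all genes tested that were called higher and the 39.8% called lower with NP-G2-044. All 4 Rag GTPases, which carry amino acid signals at the lysosome, were called higher, with log2 fold changes from 0.39 (Rraga) to 1.86 (Rragd). Of the 5 subunits of Ragulator, which anchors them there, 4 were higher, up to 0.89 for Lamtor3 (54.7 to 99.3 TPM), and Lamtor5 was not called (0.04). Folliculin and its 2 partners were all higher (0.47 for Fnip1, 1.08 for Flcn and 1.76 for Fnip2). Of the 6 HOPS subunits, which tether autophagosomes to lysosomes, 5 were higher, and Vps41 was not called (−0.06). Of the receptors for mitochondria, Bnip3, Bnip3l, Fundc1, Fkbp8, Nipsnap1 and Nipsnap2 were called lower, with log2 fold changes from −1.11 to −0.25, and Bcl2l13 was higher at 0.21. Receptors for endoplasmic reticulum were mixed, with Tex264 and Retreg1 higher at 1.11 and 0.85, Ccpg1, Rtn3 and Sec62 lower at −0.72, −0.42 and −0.12, and Atl3 not called.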
